A study of Mus musculus with 82 samples.

Results

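Adnp binds the genome of mouse embryonic stem cells at many short sites, and a minority of its ChIP-seq peaks are much broader than the rest. The peaks described here are the wide ones, listed on chromosomes 1 to 19 with a width of 600 bp or more. They were selected on that measured width, and there are 1545 of them among the 15026 Adnp peaks deposited, or 10.3% of the list. They are set against the 7664 peaks of at most 400 bp on the same chromosomes, called narrow here, and the 5694 peaks of more than 400 but under 600 bp, called intermediate, are given as the group in between.

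Adnp is a transcription factor with zinc fingers and a homeodomain. It forms the ChAHP complex with the chromatin remodeller Chd4 and with HP1 proteins, chromodomain proteins best known for binding histone H3 methylated at lysine 9. In embryonic stem cells ChAHP is known to hold down lineage genes in euchromatin, and HP1γ is encoded by Cbx3. Many mouse Adnp sites are known to lie in short interspersed elements of the B2 type, transposable elements derived from a tRNA gene, and to share sequence with the sites of Ctcf, the insulator protein that organises chromosome loops.

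The series holds 82 samples in 32 groups of mouse embryonic stem cells with a hybrid 129-C57BL/6 background, grown untreated in 2i medium with LIF. Adnp peaks come from 3 ChIP replicates of cells in which Adnp carries a FlagAvi tag, labelled wt mES cells, with streptavidin beads as the capture step and an input library for each. HP1γ peaks are tied to Cbx3 FlagAvi cells, 3 ChIP replicates with Adnp KO and 3 without it. That second list holds 2047 peaks chosen by the authors for lacking the Adnp motif, and the names its peaks carry refer to the Adnp knockout. The series' design text ties the list to both genotypes, so an HP1γ peak at an Adnp site may come from cells that lack Adnp, and an overlap does not show both proteins on the same chromatin. The cell type was not checked against marker genes, since no expression values were used here. Each list is 1 pooled list, so no value below has an error between replicates, read depth is unknown, and intervals cover counting error only. Units of the tests are peaks, and neighbouring peaks are not independent.

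Wide midpoints fell in 15 annotated promoter windows of 14 genes, each window running from 250 bases before to 50 bases after a transcription start. The 5 windows with the widest peaks are shown because they let the sequence under a wide peak be read directly. Capitals mark the words CGCCCTCT or CGCCCCCT on either strand, 8-letter words of the kind found in Adnp and Ctcf sites, so that AGAGGGCG and AGGGGGCG are their reverse complements. The sequences are from RefSeq on GRCm38.p6, read 5′ to 3′ on the strand of the gene. They are Gm38973 at chr7:27654183-27654482 on the minus strand, Yif1b at chr7:29237344-29237643, Gm34891 at chr7:19829744-19830043, Bspry at chr4:62479812-62480111 and Zfp783 at chr6:47942925-47943224, the last 4 on the plus strand.
Gm38973: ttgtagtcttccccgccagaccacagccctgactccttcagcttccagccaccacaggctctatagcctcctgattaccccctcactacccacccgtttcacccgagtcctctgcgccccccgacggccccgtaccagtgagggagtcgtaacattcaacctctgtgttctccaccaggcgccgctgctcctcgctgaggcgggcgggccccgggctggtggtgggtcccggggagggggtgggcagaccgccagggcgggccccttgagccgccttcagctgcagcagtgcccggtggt
Yif1b: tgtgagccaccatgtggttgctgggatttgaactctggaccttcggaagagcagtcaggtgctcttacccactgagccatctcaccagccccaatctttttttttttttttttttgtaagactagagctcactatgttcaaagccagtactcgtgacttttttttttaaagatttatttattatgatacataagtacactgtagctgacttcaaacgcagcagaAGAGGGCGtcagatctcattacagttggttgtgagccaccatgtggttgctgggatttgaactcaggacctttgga
Gm34891: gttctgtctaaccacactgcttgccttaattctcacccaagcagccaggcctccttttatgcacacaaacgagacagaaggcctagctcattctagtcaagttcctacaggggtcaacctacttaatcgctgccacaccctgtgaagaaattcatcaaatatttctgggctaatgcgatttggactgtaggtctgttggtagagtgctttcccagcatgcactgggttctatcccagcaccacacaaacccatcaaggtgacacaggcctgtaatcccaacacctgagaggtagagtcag
Bspry: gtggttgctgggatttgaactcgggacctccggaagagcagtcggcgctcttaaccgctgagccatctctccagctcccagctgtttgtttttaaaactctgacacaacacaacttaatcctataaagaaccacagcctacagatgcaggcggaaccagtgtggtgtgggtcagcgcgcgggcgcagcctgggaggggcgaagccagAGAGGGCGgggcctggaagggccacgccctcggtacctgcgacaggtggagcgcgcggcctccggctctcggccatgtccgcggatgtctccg
Zfp783: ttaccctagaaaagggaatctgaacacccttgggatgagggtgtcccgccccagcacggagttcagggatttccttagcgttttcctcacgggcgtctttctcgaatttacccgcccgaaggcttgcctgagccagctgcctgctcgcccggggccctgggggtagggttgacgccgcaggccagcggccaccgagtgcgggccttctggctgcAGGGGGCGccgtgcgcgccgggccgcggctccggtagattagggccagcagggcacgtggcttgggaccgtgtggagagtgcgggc

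Gm38973 lies under a peak of 1240 bp and Gm34891 under one of 849 bp, and neither window holds a capitalised word. In the window of Yif1b, which encodes a Golgi membrane protein, AGAGGGCG begins 26 bases before the start, 121 bp from the midpoint of a 1083 bp peak. In that of Bspry, a B-box and SPRY domain protein, the same word begins 43 bases before the start, 166 bp from the midpoint of a 779 bp peak. In that of Zfp783, a zinc finger gene, AGGGGGCG begins 36 bases before the start, 182 bp from the midpoint of a 778 bp peak.

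A word was present in 6 of the 15 windows with a wide midpoint (40%), in 29 of 74 windows with a narrow midpoint (39.2%), and in 2779 of all 31396 windows (8.85%). No test of these shares was made. The 3 windows with a word that are not shown belong to Zpr1, and to Prss50 with 2 starts that share most of their bases, 1 peak and the same word, so that this site is counted in both windows. All 6 words lay inside the peak, 21 to 182 bp from its midpoint. Median GC was 62% under wide midpoints, 56.2% under narrow midpoints and 53% in all windows, and the median number of CpG sites was 20, 15.5 and 7 in the same order.

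The Yif1b and Bspry windows also contain GGGATTTGA, 9 letters that belong to the B2 element. After these sequences had been read, that word was searched on both strands, its reverse complement being TCAAATCCC. It was in 4 of the 15 windows with a wide midpoint (26.7%), in 10 of the 74 with a narrow midpoint (13.5%) and in 155 of all 31396 windows (0.494%). The 4 belong to Yif1b, Bspry, Zpr1 and 1810013D15Rik. Both kinds of word stood together in 3 windows under wide midpoints (20%), in 2 under narrow midpoints (2.70%) and in 17 of all windows (0.0541%). Since the B2 word was picked from windows under wide peaks, these shares are a description, and a match in a window says nothing about binding.

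Wide peaks had a median width of 714 bp, with quartiles of 642 and 836 bp, against 330 bp and quartiles of 295 and 364 bp for narrow peaks. There were 477 peaks of at least 800 bp, 182 of at least 1000 bp and 4 of at least 2000 bp. Together the wide peaks covered 1201 kb, 18.7% of the 6415 kb under all Adnp peaks of chromosomes 1 to 19. The authors' score, whose kind is not stated, had a median of 30.4 in wide peaks with quartiles of 19.9 and 49.5, and 16.2 in narrow peaks with quartiles of 11.5 and 23.1. It was 29.8 in intermediate peaks, about that of the wide ones. Width and score come from the same ChIP, so they are given without a test. Spearman's rho between them was 0.555 over 14903 peaks of chromosomes 1 to 19, but 0.0968 within the 1545 wide ones.

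**Figure D1:**
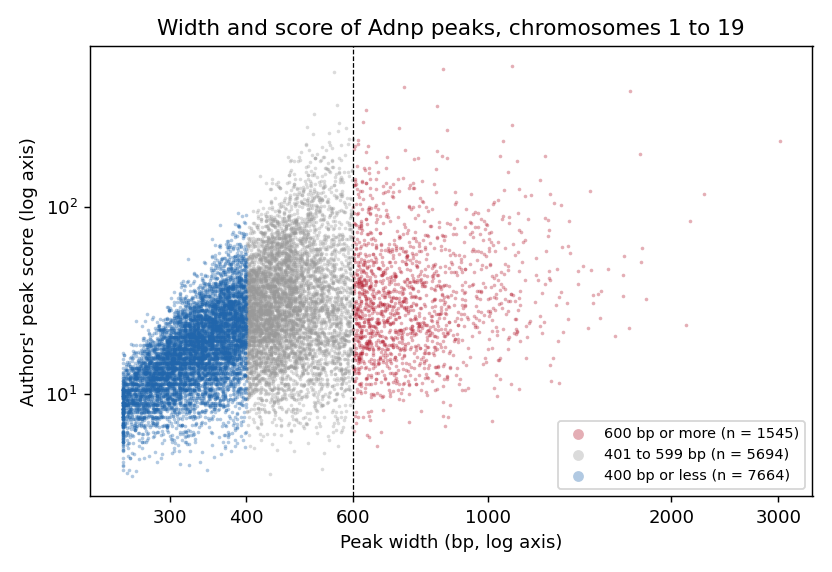
Width (bp, log axis) against the authors' score (log axis) for each Adnp peak on chromosomes 1 to 19, with wide peaks apart from the other width groups. Median scores were 16.2 in narrow, 29.8 in intermediate and 30.4 in wide peaks. In finer classes the median was 32.4 from 451 to 500 bp, 29.1 from 600 to 699 bp and 37.0 at 1000 bp or more.

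The width limit cuts through a continuous distribution. At the limit or 1 bp above it, 20 peaks had scores of 13.4 to 131 with a median of 32.3. Falling short of it by 1 or 2 bp, 16 peaks had scores of 9.04 to 232 with a median of 32.6. A gene end lay within 1 kb in 3 peaks inside the limit and 2 outside it, and another Adnp peak lay within 10 kb in 13 and 7.

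The widest peak in the list, 3016 bp at chr7:19824640-19827655 with a score of 226, lay 3.32 kb outside Bcl3, which encodes an IκB-family regulator of NF-κB targets. The window of Gm34891 shown above belongs to another wide peak of the same neighbourhood, within 10 kb of it. Next came 2267 bp with a score of 117 at chr8:33965481-33967747, with the RNA-binding protein gene Rbpms as nearest protein-coding gene at 36.7 kb. A peak of 2117 bp with a score of 23.5 lay inside Il3ra, the α chain of the interleukin 3 receptor, and overlapped an HP1γ peak. The scores of these very wide peaks differed widely. Distances between peaks and named genes, here and below, run from the peak midpoint, so the nearer edge of a peak lies closer.

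Among the next ranks the score was as high as 417 in a 1709 bp peak 1.11 kb from Rfwd3, a ubiquitin ligase of the DNA damage response, and 191 in a 1779 bp peak 11.4 kb from Gpatch8. It was as low as 20.4 in a 1617 bp peak 6.38 kb from Spock2, a gene for an extracellular proteoglycan, and 22.6 in a 1705 bp peak inside Gtf2ird1, a transcription factor of the TFII-I family. Peaks of 1818 bp at Pcbp1 (an RNA-binding protein), 1789 bp at Slc25a3 (the mitochondrial phosphate carrier) and 1783 bp at Aldh1l1 (a folate enzyme) lay 4.98, 6.37 and 17.4 kb away from those genes. Top2a, the topoisomerase of dividing cells, had a 1668 bp peak 2.25 kb from its end.

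Of the last ranks, a 1490 bp peak with a score of 33.8 lay 2.93 kb from Nodal, the TGFβ-family ligand of mesoderm and endoderm formation, with 4 other Adnp peaks within 10 kb. Another of 1490 bp with a score of 30.7 lay 25.5 kb from Prdm14, a pluripotency and germ cell regulator. Others were inside Fbxo36 (1673 bp), Dagla (1534 bp) and Hip1 (1517 bp), or outside Rasl11a (1664 bp, 45.8 kb away) and Ube2d2a (1574 bp, 14.0 kb away).

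Wide peaks were found at gene ends more often than narrow peaks, and inside genes less often. Of the wide midpoints, 212 had a gene's first or last base no more than 1 kb away, or 13.7% (95% Wilson interval 12.1 to 15.5), against 745 or 9.72% (9.08 to 10.4) of the narrow ones. A further 659 wide midpoints lay inside a gene, or 42.7% (40.2 to 45.1), against 4239 or 55.3% (54.2 to 56.4). The other 674 lay between genes, or 43.6% (41.2 to 46.1), against 2680 or 34.97% (33.9 to 36.0). Intermediate peaks fell between both groups in each class, with 11.7% at gene ends, 49.1% inside and 39.1% between genes.

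The odds of a gene end in wide peaks were 1.48 times those in narrow peaks (Fisher's exact test, two-sided, Benjamini-Hochberg adjusted p over 3 classes = 5.73e-06). For the inside of a gene the odds ratio was 0.601 and for the space between genes 1.44 (adjusted p = 3.23e-19 and 2.58e-10 by the same exact test). Wide peaks had the lower share inside genes on 19 of 19 chromosomes and the higher share at gene ends on 15. Wide peaks also lay in regions richer in genes, with a median of 17 protein-coding gene ends within 250 kb against 14. Within strata of that gene density, added after the data were seen, the odds ratios were 1.36, 0.601 and 1.49 for ends, inside and between.

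**Figure D2:**
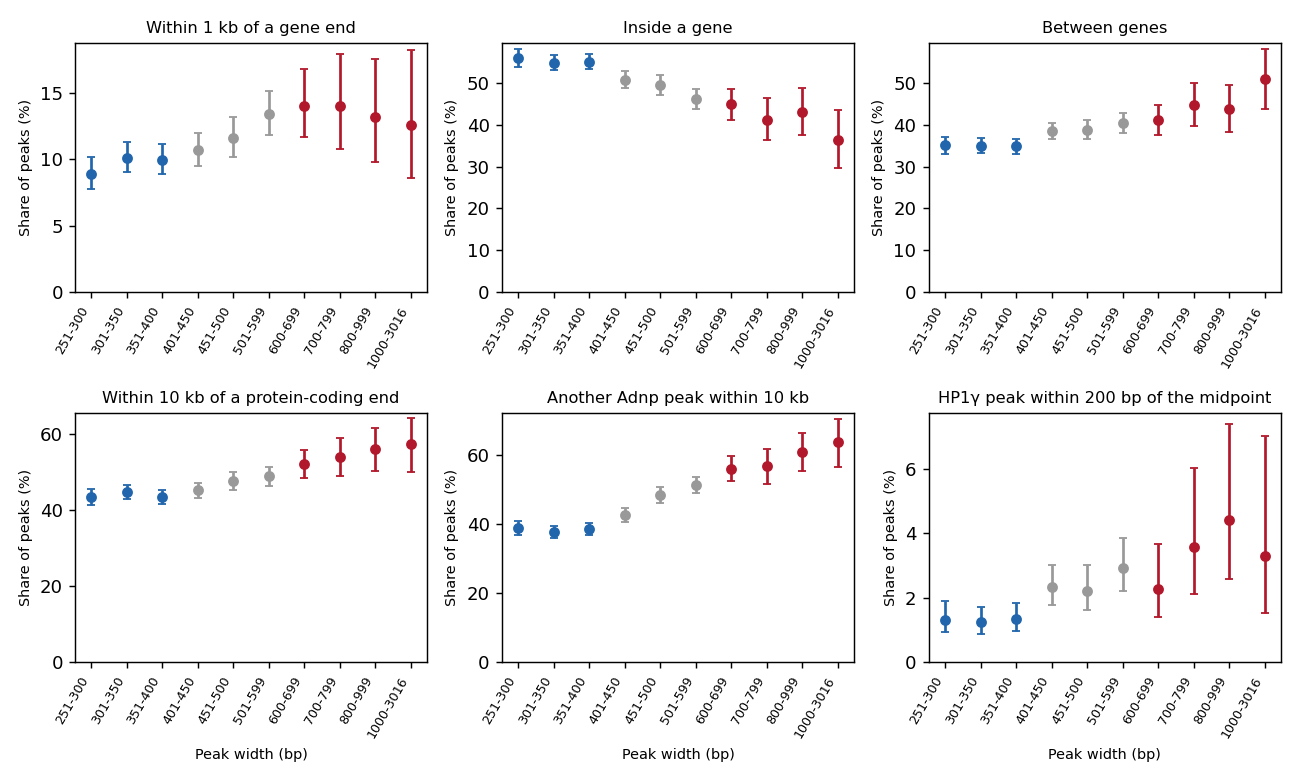
Share of Adnp peaks (%) in each width class (bp) at gene ends, inside and between genes, near protein-coding ends, with another Adnp peak and with HP1γ, with 95% Wilson intervals. The share inside genes was 36.3% at 1000 bp or more and 44.9% from 600 to under 700 bp, against 56.0% at 300 bp or less, whereas the share at gene ends was 12.6%, 14.1% and 8.90% in the same classes.

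Within the wide group, the share between genes was 41.1% from 600 to under 700 bp, 44.8% from 700 to under 800 bp, 43.7% from 800 to under 1000 bp and 51.1% at 1000 bp or more. Gene ends took 14.1%, 14.0%, 13.2% and 12.6% of the same classes, a range narrower than their intervals. The classes are listed as a description of the trend, with no test of it. Wide peaks at gene ends had a median width of 714 bp, those inside genes 706 bp and those between genes 725 bp.

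Some wide peaks within 1 kb of a protein-coding gene end had high scores. A peak of 824 bp with a score of 200 lay where the ends of Zdhhc6, a palmitoyltransferase gene, and Vti1a, a gene for a SNARE of vesicle transport, adjoin, and overlapped an HP1γ peak. One of 629 bp with a score of 197 lay at Igfbp4, an IGF-binding protein, and one of 1240 bp with a score of 187 at Lrch1. Those at Tmem51 (166), Apoa5 and Zpr1 (162), Padi4 (153), Ocel1 (144), Ramac (139), Bspry (138), Piezo1 (134) and Cwf19l2 (127) had scores as given in brackets. The peaks at Padi4 and Piezo1 each had 1 other Adnp midpoint within 10 kb, and the others named here had none.

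Wide peaks were nearer to protein-coding gene ends. A share of 53.8% (831 peaks, Wilson interval 51.3 to 56.3) had an end within 10 kb, against 43.8% (3354 peaks, 42.7 to 44.9) of narrow peaks, an odds ratio of 1.496 (p = 6.83e-13, two-sided Fisher's exact test). In intermediate peaks the share was 46.9%. Median distance to a protein-coding end was 8.96 kb for wide peaks and 12.5 kb for narrow ones. Within strata of gene density the odds ratio was 1.23.

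Where wide peaks did lie inside protein-coding genes, the genes were shorter. Median gene length was 46.9 kb for the 606 wide peaks and 64.5 kb for the 3997 narrow ones, and genes over 100 kb held 138 (22.8%) against 1394 (34.9%). These lengths are given without a test. Wide peaks between genes lay a median of 9.17 kb from a protein-coding gene, against 12.3 kb.

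Transcription starts, which mark promoters, were compared after the data were seen, on the chromosomes for which a promoter table was used (all but 18). On those chromosomes too, starts of some genes are missing from it, and only listed starts were counted. An end of Dppa2, for example, lay 1.12 kb from a wide midpoint whose nearest listed start was 103263 bp away. A start lay within 1 kb of 104 of 1510 wide midpoints, or 6.89% (5.72 to 8.28), against 301 of 7464, or 4.03% (3.61 to 4.50). The odds ratio was 1.76 (p = 4.52e-06, two-sided Fisher's exact test). On the upstream side of the start lay 74 of the 104 (71.2%), against 198 of the 301 (65.8%).

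By type of gene, midpoints inside a gene were counted together with those within 1 kb of it. Wide midpoints were so placed at a protein-coding gene in 684 cases (44.3%), against 4263 (55.6%), an odds ratio of 0.634 (Fisher's exact test, two-sided, adjusted over 9 types by Benjamini-Hochberg, p = 3.86e-15). Of these midpoints, 606 wide and 3997 narrow ones lay inside the gene, so the result largely repeats that for the inside of genes. In isolated peaks, with no other Adnp midpoint within 10 kb, that odds ratio was 0.795 (adjusted p = 0.0595, exact test). Long noncoding RNA genes were within 1 kb of 204 wide midpoints (13.2%) and of 855 narrow ones (11.2%), with an odds ratio of 1.21 (adjusted p = 0.104, exact test). Of intermediate midpoints, 10.5% had such a gene that near, a lower share than in either other group. Within 5 kb of such genes the odds ratio was 1.30 (adjusted p = 0.00105, exact test). Genes for tRNAs were within 1 kb of 4 wide midpoints (0.259%) and of 15 narrow ones (0.196%), a difference that did not pass the exact test (adjusted p = 0.922). They were n-TGgcc4, n-TSgct1, n-TRtct4 and n-TCgca56, with peaks of 844, 680, 627 and 661 bp, and they are named because there were only 4.

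Wide peaks lay closer to other Adnp peaks than narrow ones did. Another Adnp midpoint lay within 10 kb of 898 wide peaks, or 58.1% (55.6 to 60.6), against 2942 narrow peaks, or 38.4% (37.3 to 39.5), an odds ratio of 2.23 (p = 6.28e-46, two-sided Fisher's exact test). Intermediate peaks were at 46.9%. Wide peaks had the higher share on 19 of 19 chromosomes, and the odds ratio was 2.04 within strata of gene density. The nearest Adnp midpoint was a median of 7.18 kb away for wide peaks, with quartiles of 2.53 and 19.4 kb, and 16.4 kb for narrow ones, with quartiles of 5.30 and 46.1 kb.

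The same was counted for denser settings, with no test. At least 2 other Adnp midpoints within 10 kb were counted for 446 wide peaks (28.9%) and 1087 narrow ones (14.2%), and at least 4 for 105 (6.80%) and 134 (1.75%). The share of wide peaks with a neighbour was 56.1% from 600 to under 700 bp, 56.9% from 700 to under 800 bp, 61.0% from 800 to under 1000 bp and 63.7% at 1000 bp or more. A wide neighbour lay within 10 kb of 256 wide peaks (16.6%) and of 567 narrow ones (7.40%). In 134 wide peaks (8.67%) and 310 narrow ones (4.04%) the edge of another Adnp peak lay within 500 bp.

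**Figure D3:**
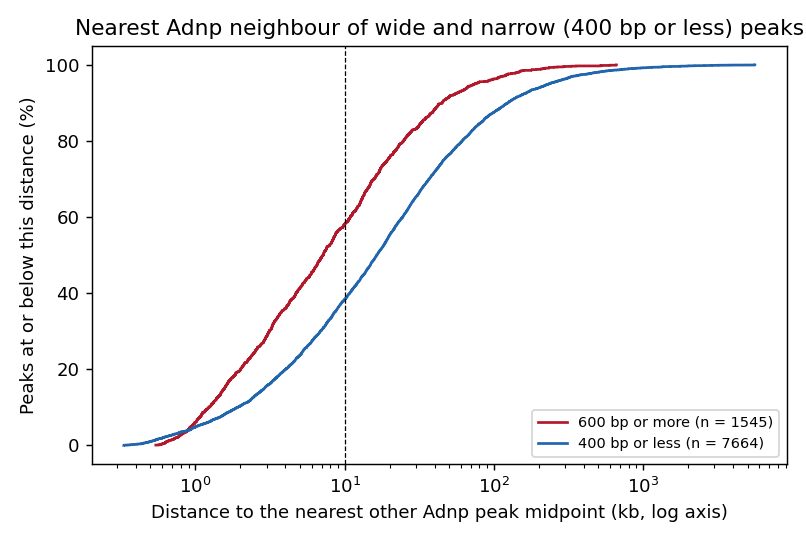
Distance to the nearest other Adnp midpoint (kb, log axis) as cumulative share of peaks (%), for wide peaks and for narrow peaks of at most 400 bp. At 10 kb the curve of wide peaks stands at 58.1% and that of the narrow peaks at 38.4%.

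Joining Adnp peaks whose midpoints were at most 10 kb apart gave 10865 runs, single peaks included. A wide peak was in 1365 of them, at least 2 were in 136 and at least 3 in 30, and those 30 held 104 wide peaks. The run with most was chr11:107132206-107162864, with 7 wide among 17 peaks, near Bptf, which encodes the largest subunit of the NURF remodeller, and Nol11. On the same chromosome chr11:107502826-107543753 held 6 wide among 14 peaks, near Psmd12 and Helz. At chr4:129371303-129385554 all 5 peaks were wide, in a run that crosses an end of Zbtb8a, a BTB zinc finger gene. Runs with 4 wide peaks included one of 9 peaks near Pou5f1, the gene of the pluripotency factor Oct4, with Tcf19 and Cchcr1 (chr17:35484740-35509856, widest 1358 bp). A run of 9 peaks with 3 wide ones lay at Nanog and Slc2a3 (chr6:122695157-122720781, widest 872 bp). These runs were picked after their values were seen, by their number of wide peaks or, for the last 2, for their pluripotency genes.

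Some genes gathered several wide peaks inside them or within 5 kb. Dnah8, an axonemal dynein gene, had 4 of 606 to 754 bp among 26 Adnp peaks, Ccnd3, the cyclin D3 gene, had 4 of 632 to 984 bp among 7, and Zbtb8a had 4 of 610 to 963 bp among 5. Tet1, a dioxygenase that oxidises methylated cytosine, had 3 of 622 to 744 bp among 7, and Slc2a3, a neuronal-type glucose transporter, had 3 of 822 to 1080 bp among 8. The others with 3 were Adap2 among 6, Mrpl45 among 4, Dlgap1 among 10, 2900026A02Rik among 8 and Gtf2ird1 among 14. These counts are not scaled by gene length, which was 15.0 kb for Mrpl45, 24.4 kb for Zbtb8a, 249 kb for Dnah8 and 852 kb for Dlgap1. Wide peaks were fewer than the other Adnp peaks at Dnah8, with 4 among 26, and more than the others at Ccnd3, Zbtb8a and Mrpl45. Over all the chromosomes compared, 10.4% of Adnp peaks were wide, a lower share than at Dnah8. At least 1 wide peak was within 5 kb of 938 of 20560 protein-coding genes (4.56%), at least 2 of 90, at least 3 of 10 and at least 4 of 3.

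HP1γ peaks without the Adnp motif, named for the Adnp knockout, were found at few sites of either kind, but more often at wide ones. Within 200 bp of the midpoint, a window that does not depend on width, an HP1γ peak was present in 48 wide peaks, or 3.11% (2.35 to 4.09), against 99 narrow ones, or 1.29% (1.06 to 1.57). The odds ratio was 2.45 (p = 1.90e-06, two-sided Fisher's exact test), and intermediate peaks were at 2.46%. By width, the share was 2.27% from 600 to under 700 bp and 3.57% from 700 to under 800 bp. It was 4.41% from 800 to under 1000 bp and 3.30% at 1000 bp or more. In peaks over 500 but under 600 bp it was 2.93%, higher than in the narrowest class of wide peaks. The higher share was thus not particular to peaks of 600 bp or more. Among peaks with a score at or above the median of the list the odds ratio was 4.76, and within strata of gene density 2.63. The authors' choice of HP1γ peaks without the Adnp motif acts on both groups, and its part in the shares was not tested.

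By a shared base, 55 wide peaks (3.56%) met an HP1γ peak, against 97 narrow ones (1.27%). Those 55 met 62 HP1γ peaks with a median width of 309 bp, and the 97 met 101 with a median of 375 bp. The wide peaks with an HP1γ peak had a median score of 32.0, the narrow ones 12.3. Of the 55, 9 were at a gene end and 31 had another Adnp midpoint within 10 kb, and of the 97, 15 and 33 did. Over all wide peaks, with or without HP1γ, these shares were 13.7% and 58.1%, and over all narrow peaks 9.72% and 38.4%. An HP1γ midpoint within 10 kb was found for 148 wide peaks (9.58%) and 362 narrow ones (4.72%).

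The widest peaks shared with HP1γ were at genes of varied roles. Besides that inside Il3ra, some lay inside Mapt, the gene of the microtubule protein tau (1279 bp, score 15.6), at an end of Boll, a germ cell RNA-binding protein gene (1164 bp, score 86.3), and 15.0 kb from Adgre5, an adhesion receptor gene (1126 bp, score 75.7). Further ones lay 20.6 kb from Ric8b (1058 bp, score 22.4) and 0.966 kb from Fkbp5, a steroid receptor co-chaperone gene (1058 bp, score 37.6). The one at Ppp1cc, a catalytic subunit of protein phosphatase 1, had a score of 106 and 1024 bp. A 1005 bp peak 5.20 kb from Bptf had 11 other Adnp midpoints within 10 kb, the highest number among wide peaks. Ppia, the gene of cyclophilin A (991 bp), and Tanc1 (874 bp) also had one near or inside them, as did Atf7ip, whose product stabilises the H3K9 methyltransferase Setdb1 (892 bp, 0.310 kb from an end).

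**Figure D4:**
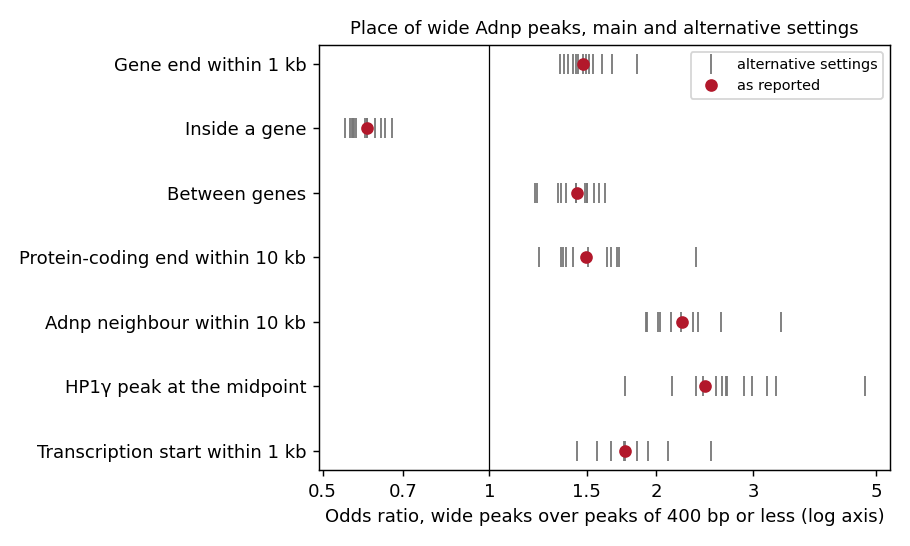
Odds ratios (log axis) of wide peaks against narrow peaks of at most 400 bp for gene context, protein-coding ends, transcription starts, neighbours and HP1γ, as points, with vertical ticks for the alternative settings. The neighbour result stands at 2.23 and HP1γ at 2.45, while the inside of genes is below 1 at 0.601.

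Chromosomes held different shares of wide and narrow peaks. Chromosome 17 held 6.67% of the wide and 4.44% of the narrow peaks, an odds ratio of 1.54 (Fisher's exact test, two-sided, adjusted over 19 chromosomes by Benjamini-Hochberg, p = 0.00616). Chromosome 11 held 10.8% and 8.61% (odds ratio 1.29, adjusted p = 0.0459, exact test), and chromosome 1 held 4.72% and 6.76% (odds ratio 0.684, adjusted p = 0.0239, exact test). No other chromosome passed the threshold of 0.05. At a limit of 800 bp and among the higher-scoring peaks, no chromosome passed, with adjusted p values for chromosome 17 of 0.436 and 0.61. Against all peaks under 600 bp chromosomes 1 and 11 had adjusted p values of 0.125 each.

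**Figure D5:**
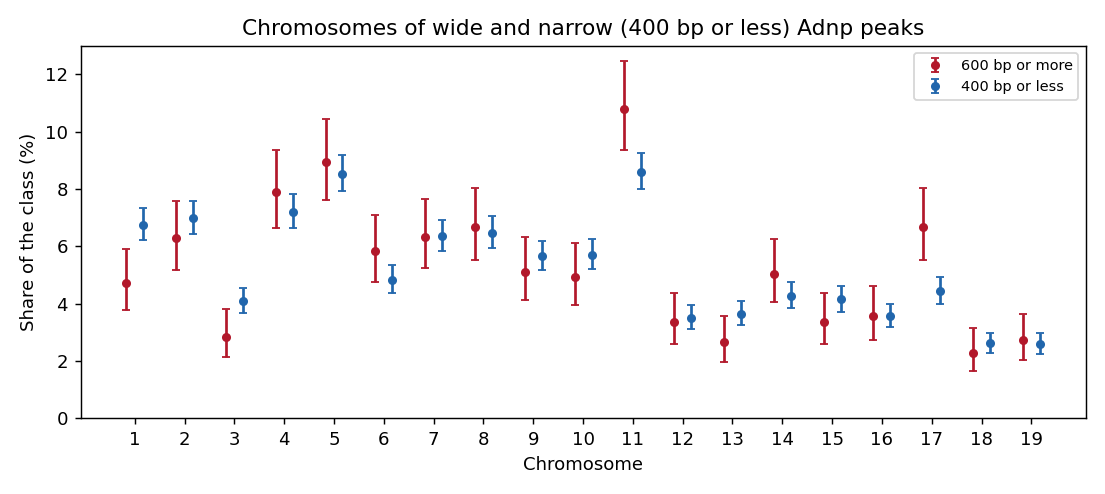
Share of wide peaks and of narrow peaks of at most 400 bp (%) on each of chromosomes 1 to 19, points with 95% Wilson intervals. Chromosome 17 stands at 6.67% of wide and 4.44% of narrow peaks, and chromosome 1 at 4.72% and 6.76%.

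Genes known to work in pluripotency, silencing, lineage choice and large families were counted by whether a peak midpoint lay inside them or within 5 kb, with no test. Of 28 pluripotency regulators, 10 (35.7%) had a wide peak and 12 (42.9%) a narrow one, beside 4.56% and 19.99% of all 20560 protein-coding genes. Dppa2 and Dppa4, early embryo genes that adjoin each other on chromosome 16, had peaks of 1352 and 912 bp, each with 3 other Adnp midpoints within 10 kb. Dppa5a, an embryonic stem cell RNA-binding protein gene, had one of 864 bp, Esrrb, an orphan nuclear receptor gene, one of 859 bp, and Tet2, a relative of Tet1, one of 796 bp. Of Tet1's 3, the widest was 744 bp. The other members with a wide peak were Nanog (673 bp), Gdf3 (635 bp), Utf1 (614 bp) and Tdgf1 (606 bp), which are given to complete the count.

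For the lists that follow, the shares of all protein-coding genes were again 4.56% with a wide peak and 19.99% with a narrow one. Of 19 genes for H3K9 methylation and silencing, 4 (21.1%) had a wide peak and 9 (47.4%) a narrow one. The 4 with a wide peak were Uhrf1, which recruits the maintenance DNA methyltransferase (974 bp), Atf7ip (892 bp), Morc3 (738 bp) and Ehmt2, the G9a methyltransferase gene (682 bp). Of 19 ChAHP, HP1 and NuRD members, 2 (10.5%) had a wide peak and 8 (42.1%) a narrow one. Cbx1, the HP1β gene, had a 1241 bp peak 1.86 kb from its end and another wide one, and Pogz, a zinc finger partner of HP1, had one of 762 bp. Of 8 genes of chromosome architecture, 2 (25%) had a wide peak and 3 (37.5%) a narrow one. Smc3, a cohesin subunit gene, had 612 bp, and Wapl, the cohesin release factor gene, had 665 bp.

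Lineage regulators were counted likewise, beside the same 4.56% and 19.99% of all protein-coding genes. Of 17 endoderm genes, 2 (11.8%) had a wide peak and 5 (29.4%) a narrow one. Col4a2, a basement membrane collagen gene, had one of 863 bp and Gata4, an endoderm and heart transcription factor gene, one of 634 bp. Of 19 mesoderm genes, Hand1, a transcription factor gene, had one of 702 bp (5.26%) and none had a narrow peak. Of 14 neural genes none had a wide peak and 1 had a narrow one.

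The large gene families were counted last, beside the same 4.56% and 19.99% of all protein-coding genes. The ribosomal protein list held 80 protein-coding genes taken by symbol alone, Rpl or Rps and a number. Of these, 6 had a wide peak (7.5%) and 14 a narrow one (17.5%). The 6 were Rps14 (917 bp), Rpl7l1 (866 bp), Rpl13 (794 bp), Rpl37a (789 bp), Rps16 (656 bp) and Rpl10a (655 bp). Of 455 zinc finger genes, 22 (4.84%) had a wide peak and 97 (21.3%) a narrow one. Both shares were close to those of all protein-coding genes. Zinc finger genes with a wide peak included Zfp335 (1177 bp), Zbtb44 (1110 bp), Zfp13 (1039 bp), Zfp64 (958 bp) and Zfp217 (922 bp). None of 1103 olfactory receptor genes and none of 74 histone genes had a wide peak, while 4 (0.363%) and 8 (10.8%) had a narrow one.

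The deposited Adnp list has a block sorted by position followed by other peaks. In the block 1524 of 14547 peaks on chromosomes 1 to 19 were wide (10.5%), and after it 21 of 356 (5.90%).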

How the data were processed

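ChIP-seq peaks were analysed from 2 lists deposited by the authors, without header lines. Per the submitters' processing notes, the series used Bowtie 1.0.0 and MACS2 on mm10 (GRCm38), with no roles stated and with settings not given in the sources used here. Each list is pooled over replicates by the authors. The deposited positions are the other values used, and the authors' score per Adnp peak, of a kind not stated, served to describe and rank peaks. The Adnp list is a subset of a longer one, since its peak names are numbered up to 31188. The HP1γ list carries a score of 0 throughout, which was not used.

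Wide peaks (600 bp or more) were compared with narrow peaks of at most 400 bp on chromosomes 1 to 19 by midpoint, so that width did not set the class. Gene positions came from RefSeq on GRCm38.p6 (46714 genes, 20560 protein coding), which gives no exons; genes starting below 3 Mb were left out. A gene end is either end of a gene, since the gene table has no strand; starts came from the promoter table. Shares were compared by Fisher's exact test, two-sided, with adjustment after Benjamini-Hochberg within each family (3 context classes, 9 gene types, 19 chromosomes) and a threshold of 0.05; strata were pooled by the Mantel-Haenszel method. Distances, lengths, scores, words and gene lists were described without a test. Depth per sample is unknown, and p-values describe these lists, not replicates.

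The members, gene lists and named genes were chosen with earlier results of these data known. Named genes were those nearest to the 20 widest peaks, those with an end within 1 kb of the 12 highest-scoring such wide peaks, the 10 with most wide peaks within 5 kb, up to 6 per gene list, and those at the 12 widest peaks sharing a base with HP1γ. Some genes that this rule names are not reported here. Alternatives changed windows, width limits, the comparison peaks, score strata and the sorted block. Those on gene density, transcription starts, runs reduced to their widest peak and neighbours over 2 kb away were chosen after the data were seen. Keeping the widest peak of a run selects on the width that defines the groups. That setting therefore cannot decide whether the dependence between neighbouring peaks mattered. SciPy 1.17.1, statsmodels 0.14.6, pandas 2.3.3, NumPy 2.4.6 and matplotlib 3.10.9 were used under Python 3.11.15, and the comparisons were tested on simulated data.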

Additional observations from a re-analysis of the deposited data

How the results depend on the processing

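The differences at gene ends, inside genes, between genes, near protein-coding ends, at transcription starts, in neighbours and in HP1γ kept their direction and their side of 0.05 under every alternative run on them. Except for starts and neighbours, the alternatives include runs reduced to their widest peak, a setting that itself selects on width. The odds ratios ranged from 1.34 to 1.85 at gene ends (13 alternatives), 0.549 to 0.668 inside genes (13), 1.21 to 1.62 between genes (13), 1.23 to 2.36 near protein-coding ends (11), 1.44 to 2.52 at starts (9), 1.92 to 3.37 for neighbours (10) and 1.76 to 4.76 for HP1γ (13). The number of gene types past the threshold was 1, and became 2 against all peaks under 600 bp (long noncoding RNA genes, odds ratio 1.25, adjusted p = 0.0318 by the exact test), 2 within 5 kb and 0 without neighbours within 10 kb. The number of chromosomes was 3, and became 1 against all peaks under 600 bp, 0 at 800 bp or more and 0 among higher-scoring peaks. The settings at 800 bp or more and of higher-scoring peaks hold fewer peaks, and that against all peaks under 600 bp holds more. The cause of these changes was not tested. No paired analysis was possible because each list pools its replicates, and for the same reason no replicate could be left out. The missing depth limits what can be said of peaks too weak to be listed.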

Other observations

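Outside chromosomes 1 to 19 the Adnp list held 123 peaks, of which 16 were 600 bp or wider. Chromosome X had 9 among 106, the widest of 828 bp. Chromosome Y had 4 among 5, the widest of 2243 bp, and unplaced scaffolds had 3 among 12, the widest of 1811 bp. These peaks entered no comparison.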
